A study of Mus musculus with 8 samples.

Results

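Salivary fluid secretion and duct ion transport rest on a small set of channels, transporters and receptors, and 10 of their genes were followed here on mouse whole genome arrays. The acinar secretion genes were Aqp5, Slc12a2, Ano1 (named Tmem16a in older annotation), Kcnn4, Chrm1 and Chrm3, and the duct genes were Cftr, Scnn1a, Scnn1b and Slc9a3. Members were taken by the gene name that the array files give to each probe, which found all 10 genes on 15 of the 41174 probes. No measured value entered this step from names to probes, but the 10 genes were chosen with earlier results of these data known. Of the 10 genes, 9 were bright enough to be tested among 16362 genes, which asked for a signal well above background throughout at least 1 group. On all 8 arrays 6 of the 9 met that limit, and Chrm1 met it on none.

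The tissues were salivary gland tumours induced by the kinase AKT, some of them from animals given rapamycin, an inhibitor of mTOR, a kinase downstream of AKT, together with normal salivary glands. Untreated tumour was measured on 2 arrays, tumour after 3 days of rapamycin on 1, tumour after 14 days of rapamycin on 2, normal submandibular gland on 1 and normal parotid gland on 2. The labels give a title of AKT induced tumours and no more. The gland in which the tumours arose, the promoter or Cre that drove AKT, the strain, age and sex of the mice and the rapamycin dose are not given in the sources used here, and neither is the number of animals behind each array. Each p-value therefore measures only the spread between these samples, which may in part be technical. Day 3 and submandibular gland, with 1 array each, borrow the spread of the other groups.

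Saliva is made in steps. Acinar cells are stimulated through muscarinic receptors, which release calcium inside the cell. Calcium opens an apical chloride channel and a potassium channel, a cotransporter on the blood side refills the cell with chloride, and water follows through an apical water channel. Duct cells, which are nearly impermeable to water, then take back sodium and chloride through the epithelial sodium channel and CFTR, so that the final saliva is dilute.

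All values are log2 signals relative to the 75th percentile of the array, so that 0 is the signal at that percentile and 1 unit is a doubling. Because a probe's brightness also depends on its sequence, values are compared between arrays and not between genes. In whole tissue, fewer cells of a type and less RNA per cell cannot be told apart. The 75th percentile itself was 177 to 236 raw signal units on the day 14 arrays, against 966 and 972 on the untreated tumour arrays, 730 at day 3, 277 in submandibular gland and 145 to 384 in parotid gland. A dim probe therefore sits at a different relative level on each array, and where a gene was not well above background on any array of a group its difference is also given as "at least N-fold", against the higher of the array's lowest well-above-background signal and the probe's own. Such a bound holds for this scaling only. Other background settings gave smaller folds for members, as stated beside their results, and were not read for the partners and relatives. The arrays lay on 2 slides, of which slide 1 held day 14 replicate 1, parotid replicate 1 and the untreated tumours, and slide 2 the rest. Both day 14 arrays held Xist, which is transcribed from inactive X chromosomes (-2.10 and -2.40), together with Y-linked signal (0.70 and 0.45), while each of the other 6 arrays held either one or the other, and the cause was not tested.

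Promoter sequences are shown for 4 genes, chosen for their differences at day 14 in either direction: Aqp5, Cftr and Scnn1b, which were higher than in untreated tumour, and Slc9a3, which was lower. Each is the 250 bases before the transcription start, 5′ to 3′ on the gene's strand, from RefSeq on GRCm38.p6. Capitals mark matches on either strand to GGGCGG, the GC box bound by Sp1, and to CACGTG, an E-box. The windows are chr15:99590778-99591027 (plus strand) for Aqp5, chr6:18170437-18170686 (plus) for Cftr, chr7:121864788-121865037 (plus) for Scnn1b and chr13:74121163-74121412 (plus) for Slc9a3.
Aqp5: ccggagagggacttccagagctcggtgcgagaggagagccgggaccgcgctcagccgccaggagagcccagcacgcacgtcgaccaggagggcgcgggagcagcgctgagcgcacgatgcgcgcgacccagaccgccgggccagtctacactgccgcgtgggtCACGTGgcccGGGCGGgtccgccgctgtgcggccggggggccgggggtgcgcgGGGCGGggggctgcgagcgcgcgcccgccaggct
Cftr: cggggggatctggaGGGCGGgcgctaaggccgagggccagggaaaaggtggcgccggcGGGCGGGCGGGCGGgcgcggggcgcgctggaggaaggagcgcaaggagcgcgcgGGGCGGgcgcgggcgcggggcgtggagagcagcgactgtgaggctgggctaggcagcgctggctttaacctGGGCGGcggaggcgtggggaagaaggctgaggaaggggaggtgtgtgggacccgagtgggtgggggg
Scnn1b: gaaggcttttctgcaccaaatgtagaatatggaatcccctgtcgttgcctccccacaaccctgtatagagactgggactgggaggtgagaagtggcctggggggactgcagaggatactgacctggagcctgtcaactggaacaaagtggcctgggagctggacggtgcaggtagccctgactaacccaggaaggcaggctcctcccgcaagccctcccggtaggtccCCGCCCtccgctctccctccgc
Slc9a3: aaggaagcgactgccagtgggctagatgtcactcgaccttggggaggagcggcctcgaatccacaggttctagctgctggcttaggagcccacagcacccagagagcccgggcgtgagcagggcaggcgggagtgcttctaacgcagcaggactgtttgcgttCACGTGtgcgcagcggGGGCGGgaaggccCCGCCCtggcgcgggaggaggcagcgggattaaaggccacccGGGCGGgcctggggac

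Windows were read for 7 of the 10 genes, and 6 of these 7 held GGGCGG, against 32.7% of all 32851 promoter windows of the same length. Scnn1a, Chrm1 and Slc12a2 are not among the 7. Member windows on chromosome 18, where Slc12a2 lies, were left out, whereas the total includes that chromosome. CACGTG was present in 3 of the 7, Aqp5, Kcnn4 and Slc9a3, against 6.02% of all windows, and in both Aqp5 and Slc9a3 its first base lay 87 bases before the start (position -87), although these genes differed in opposite directions at day 14. Cftr held 6 copies of GGGCGG, of which 3 overlapped in 1 run. Neither TATAAA nor TGTTCT, a steroid receptor half-site, was found in any of the 7, against 12.4% and 16.1% of all windows. The GC content was 78.4% for Aqp5, 76.4% for Cftr, 60.8% for Scnn1b and 67.6% for Slc9a3, against a median of 52.4% over all windows. A match of letters is a description of these windows and not a binding site.

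Aqp5 encodes aquaporin 5, the apical water channel of acinar cells, and its probe lies at chr15:99422734-99422792 on mm8, the assembly of the array annotation. The Aqp5 signal was 5.65 and 5.36 in untreated tumour, 5.81 at day 3, 6.94 and 6.98 at day 14, 7.43 in submandibular gland and 6.73 and 7.34 in parotid gland. The untreated and day 3 tumours lay below the day 14 tumours and both glands, and the day 14 values lay inside the parotid range. Before scaling, the raw Aqp5 signals were 21824 and 29815 at day 14, against 48323 and 40029 in untreated tumour, so the higher day 14 level of Aqp5 is relative to the rest of each array.

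Slc12a2 encodes NKCC1, the sodium, potassium and chloride cotransporter that loads acinar cells with chloride, and its probe lies at chr18:58071427-58071486. The Slc12a2 signal was 1.30 and 1.35 in untreated tumour, 1.72 at day 3, 4.08 and 4.42 at day 14, 5.78 in submandibular gland and 5.37 and 5.15 in parotid gland. The 5 groups did not overlap, with the day 14 tumours between the other tumours and the glands. In the order of levels, submandibular and parotid gland did not differ beyond their spread (0.51, adjusted p = 0.395), nor did day 3 and untreated tumour (0.39, adjusted p = 0.759), whereas both other steps did.

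Ano1 encodes the calcium-activated chloride channel TMEM16A of the acinar apical membrane, and its probe lies at chr7:144398494-144398553 on the minus strand. The Ano1 signal was 2.51 and 2.58 in untreated tumour, 2.33 at day 3, 1.81 and 1.63 at day 14, 2.03 in submandibular gland and 3.18 and 2.81 in parotid gland. Ano1 thus had its lowest values at day 14 and its highest in parotid gland, with the smallest span across the 8 arrays of the 9 tested genes. No neighbouring step in that order passed the test where it was tested (adjusted p = 0.143 to 0.905).

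Kcnn4 encodes the intermediate-conductance calcium-activated potassium channel, and its probe spans chr7:24092925-24093523. The Kcnn4 signal was 4.91 and 5.32 in untreated tumour, 4.61 at day 3, 4.72 and 5.12 at day 14, 6.34 in submandibular gland and 6.35 and 5.97 in parotid gland. All 5 tumour arrays lay below all 3 gland arrays, and the untreated and day 14 tumours overlapped. The step between untreated tumour and parotid gland was the only neighbouring step in the Kcnn4 order that passed (adjusted p = 0.0275).

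Chrm3 and Chrm1 encode the M3 and M1 muscarinic acetylcholine receptors, which carry the parasympathetic signal for secretion. The reported Chrm3 probe (chr13:9876539-9876598, minus strand) was well above background only in submandibular gland (-2.27) and in parotid replicate 1 (-3.25). It was below that limit in parotid replicate 2 (-2.91), at day 14 (-5.30 and -4.39), at day 3 (-5.84) and in untreated tumour (-7.15 and -7.51). The other Chrm3 probe (chr13:10119735-10119794, minus strand), which the files assign to a cDNA clone, showed another pattern: it was well above background on both day 14 arrays (-2.48 and -3.09) and on no other array. The probes of Chrm3 thus disagree on which tissue is highest, and no single level is given for the receptor. Neither Chrm1 probe was well above background on any array, so no level of Chrm1 could be compared.

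Cftr encodes the cystic fibrosis chloride channel, which in salivary ducts carries chloride back out of the saliva, and its reported probe (chr6:18272483-18272542) was printed in 10 spots per array. The Cftr signal was -6.52 and -6.33 in untreated tumour and -5.36 at day 3, not well above background on these 3 arrays, 0.98 and 0.41 at day 14, -0.07 in submandibular gland and -3.87 and -3.15 in parotid gland, where it was well above background only in replicate 1. Day 14 tumours and submandibular gland formed the high end, without a difference beyond their spread (0.76, adjusted p = 0.431). The other Cftr probe (chr6:18217739-18217798) was well above background only in untreated tumour replicate 2 (-4.65) and so does not bear on these levels.

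Scnn1a and Scnn1b encode the alpha and beta subunits of the epithelial sodium channel, through which duct cells absorb sodium. The Scnn1a signal (chr6:125310444-125310503) was -0.44 and -0.80 in untreated tumour, -0.12 at day 3, 3.48 and 3.12 at day 14, 4.51 in submandibular gland and 1.42 and 2.47 in parotid gland. The Scnn1b signal (chr7:121709218-121709277) was -3.60 and -2.70 in untreated tumour, -3.07 at day 3, 1.43 and 1.36 at day 14, 2.86 in submandibular gland and -1.68 and -0.74 in parotid gland. Both subunits had the same order of group means, with submandibular gland highest, then day 14, parotid gland, day 3 and untreated tumour. The last step was within the spread for both (adjusted p = 0.87 for Scnn1a and 0.988 for Scnn1b, limma), and the Scnn1b day 3 value lay inside the untreated range. Submandibular gland and day 14 did not differ beyond their spread for either subunit (adjusted p = 0.159 for Scnn1a and 0.153 for Scnn1b). The second Scnn1a probe, which spans chr6:125308673-125308877, was not well above background on any array.

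Slc9a3 encodes the sodium and proton exchanger NHE3, found on the apical membrane of absorbing epithelia. The Slc9a3 signal (chr13:74635283-74635342) was 3.16 and 2.85 in untreated tumour, 3.06 at day 3, -1.47 and -1.52 at day 14, -1.51 in submandibular gland and -4.92 and -3.45 in parotid gland, where it was not well above background. Slc9a3 ran opposite to the other 3 duct genes in the untreated and day 3 tumours, which lay far above every other array. Among the remaining arrays it was higher at day 14 and in submandibular gland than in parotid gland, as the other 3 were. The second Slc9a3 probe, which spans chr13:74629120-74629726, was well above background on the same 3 arrays only, at -3.14 and -3.29 in untreated tumour and -3.31 at day 3. Both probes placed the same arrays on top.

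**Figure D1:**
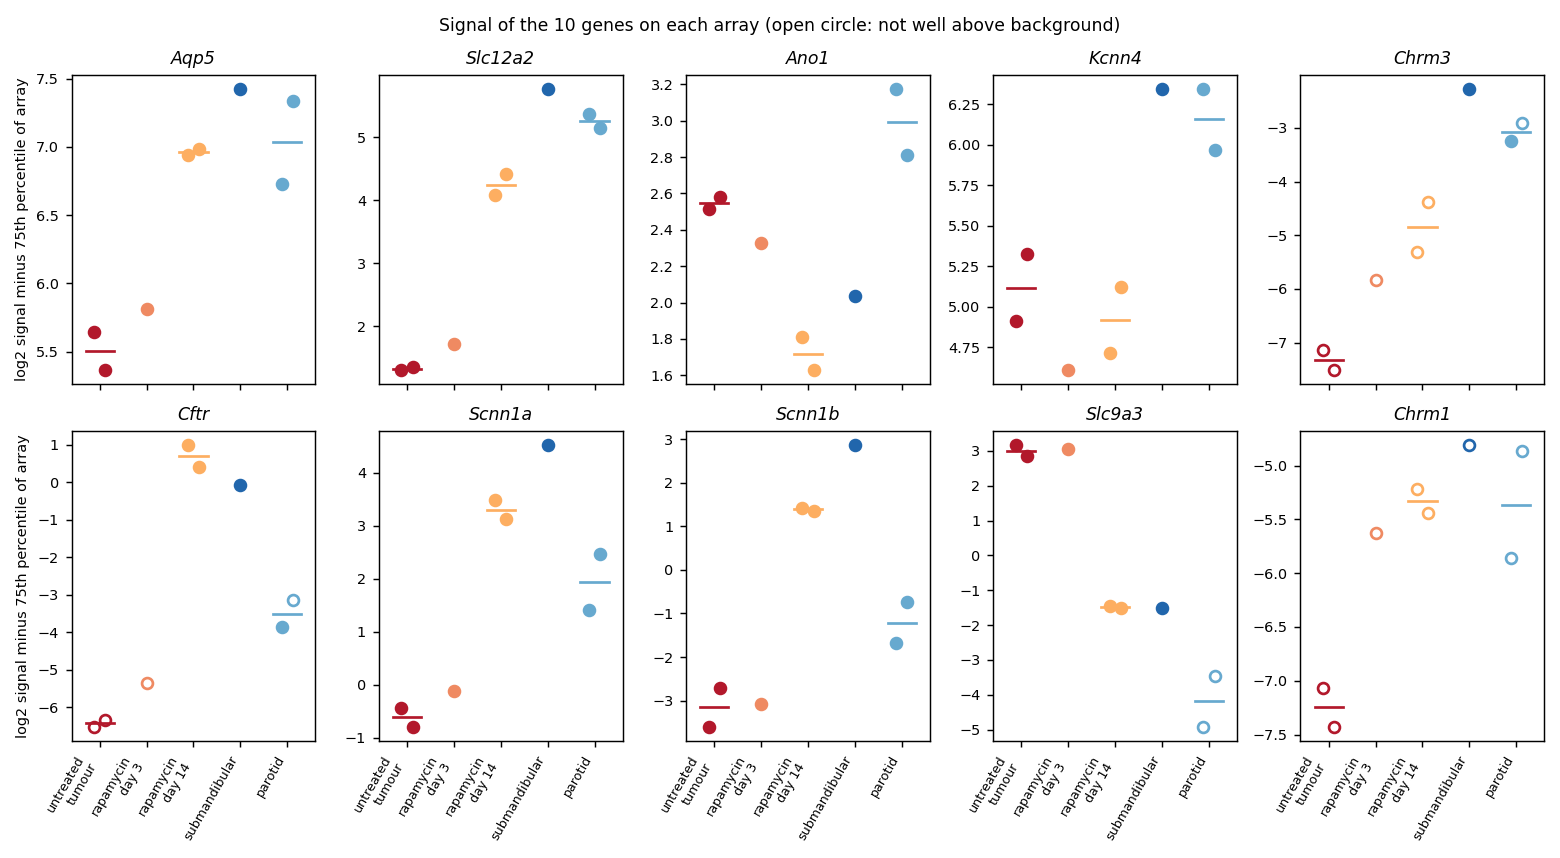
Log2 signal relative to the 75th percentile of the array (vertical axis) of each of the 10 genes on every array, by group (horizontal axis), with the 3 tumour groups in order of treatment and the glands after them. Points are arrays, lines are group means and open circles are arrays on which no reported signal was well above background. Scnn1a, Scnn1b and Cftr lie higher at day 14 than in the untreated and day 3 tumours, and Slc9a3 lies lower. The vertical scale differs between panels.

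**Figure D2:**
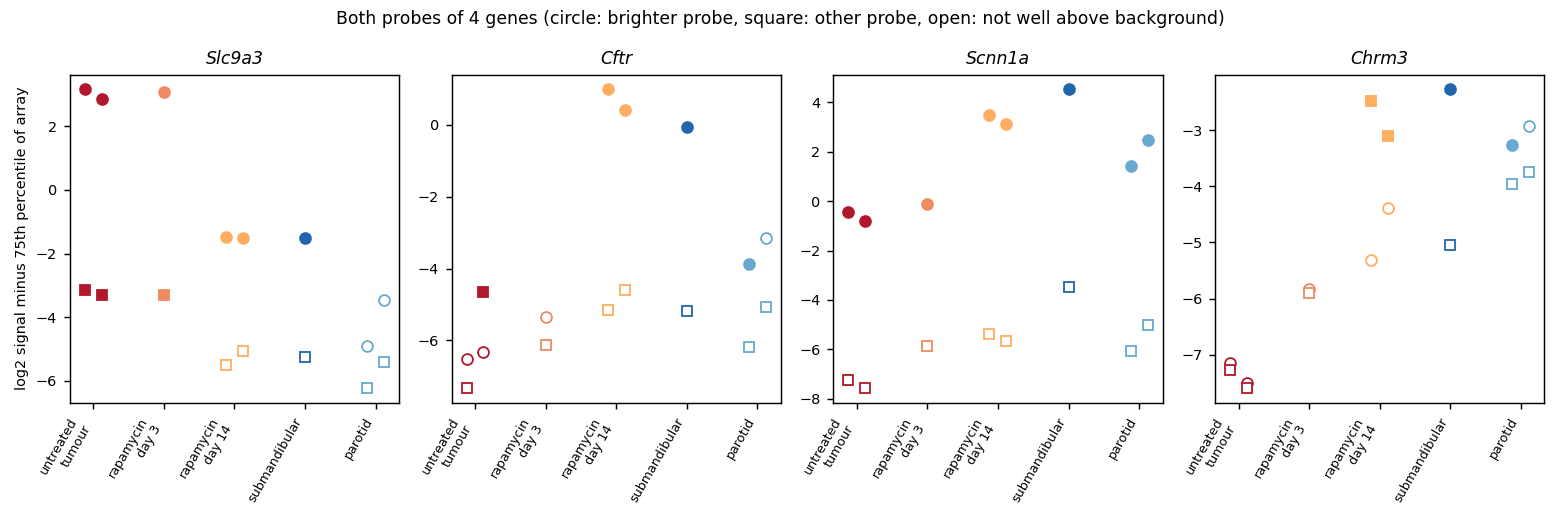
Both probes of the 4 tested genes that have a second probe, on the same log2 scale (vertical axis) by group (horizontal axis). Circles are the brighter probe, squares the other, and open symbols are not well above background. For Slc9a3 both probes are highest in the untreated and day 3 tumours, while for Chrm3 the second probe is well above background on the day 14 arrays only.

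Untreated tumour was compared with parotid gland to see how tumours differ from normal gland, and most members were lower. In untreated tumour 1 of the 9 tested genes was higher and 7 were lower, against 18.7% of all tested genes higher and 20.3% lower (39.0% in either direction). The acinar genes had a median log2 difference of -1.53 and the duct genes one of -2.25, against 0.02 over all genes. Slc12a2 fell by 3.94 ± 0.21 (SE, adjusted p = 0.000152, limma), the cotransporter's signal being 15.3-fold lower. Aqp5 differed by -1.53 ± 0.29 (adjusted p = 0.00839) and Kcnn4 by -1.04 ± 0.27 (adjusted p = 0.0275). Ano1, at -0.45 ± 0.21, did not pass (adjusted p = 0.143). The Chrm3 receptor probe was at least 4.88-fold lower (adjusted p = 0.00189).

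Among the duct genes, Scnn1a differed by -2.56 ± 0.38 (adjusted p = 0.00356) and Scnn1b by -1.94 ± 0.45 (adjusted p = 0.018) in untreated tumour against parotid gland. Cftr was at least 3.63-fold lower (adjusted p = 0.00394), counting both parotid arrays. Slc9a3 was the exception and was at least 95.9-fold higher in untreated tumour (7.18 ± 0.49, adjusted p = 0.000297), and 4.54 higher on the log2 scale with normexp background correction, which is below that bound. Without untreated tumour replicate 2 the Aqp5 call was lost (-1.39), and without replicate 1 those of Kcnn4 (-0.83) and Scnn1b (-1.49), Kcnn4 also without replicate 2 (-1.25) and both also without either day 14 array at unchanged differences (-1.04 and -1.94), while Ano1 passed without parotid replicate 2 (-0.63). Normexp also ended the calls of Chrm3 (-1.11), Cftr (-0.85) and Scnn1b (-1.16), and with signals below 1 common floor set to that floor the Chrm3 difference was -0.02 and its call was lost. Quantile normalization and the deposited values ended the call of Kcnn4 (-0.66 and -0.59) and brought Aqp5 to -0.98 in both, quantile normalization brought Chrm3 to -2.80, and the deposited values brought Cftr to -1.26. Slide as a fixed block ended the calls of Kcnn4 (-1.03) and Scnn1b (-1.72), slide 1 alone that of Scnn1b (-1.47), a fit of only the arrays compared those of Kcnn4 and Scnn1b, and the common floor that of Kcnn4, at unchanged differences in both of these settings.

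Against submandibular gland the tested genes split the same way, with 1 higher and 7 lower in untreated tumour, against 14.3% of all tested genes higher and 15.2% lower (29.4% in either direction). Since both comparisons use the same untreated tumour arrays, they are not independent. Scnn1b differed by -6.02 ± 0.55 (adjusted p = 0.00107), Scnn1a by -5.13 ± 0.46 (adjusted p = 0.00102), and Cftr was at least 39.5-fold lower (adjusted p = 0.000844), with smaller log2 differences from normexp (-2.55), the common floor (-2.89) and the deposited values (-4.02). Slc12a2 differed by -4.45 ± 0.26 (adjusted p = 0.00033), Aqp5 by -1.92 ± 0.35 (adjusted p = 0.00992) and Kcnn4 by -1.23 ± 0.34 (adjusted p = 0.0377). The Chrm3 probe was at least 8.57-fold lower (adjusted p = 0.00297). It was kept only through the submandibular array, so the filter favoured this difference and the test is no independent support for it. Slc9a3 was 4.51 ± 0.60 higher on the log2 scale (adjusted p = 0.00351), and Ano1 did not pass (0.51, adjusted p = 0.187). This comparison had 1 submandibular array. The Aqp5 call was lost without untreated tumour replicate 2 (-1.78), and that of Kcnn4 without any single untreated (-1.02 and -1.43) or day 14 array (-1.23). Normexp ended the Chrm3 call (-1.27), and the common floor brought Chrm3 to -0.68. The untreated tumours lay on slide 1 and the submandibular array on slide 2, and with slide as a fixed block the calls of Aqp5 (-1.60, adjusted p = 0.0707) and Kcnn4 (-1.21, adjusted p = 0.148) were lost. The Kcnn4 call was also lost with normexp (-1.19), quantile normalization (-0.86), the deposited values (-0.84) and, at an unchanged difference, without the intensity trend or with the common floor.

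After 3 days of rapamycin none of the 9 tested genes differed from untreated tumour past the threshold with limma, and none had an unadjusted p under 0.05. Of all 16362 tested genes 0.00611% were called, and 1436 had an unadjusted p under 0.05. The log2 differences of the 6 genes well above background on all arrays were 0.31 for Aqp5, 0.39 for Slc12a2, -0.22 for Ano1, -0.51 for Kcnn4, 0.49 for Scnn1a and 0.08 for Scnn1b, and Slc9a3 differed by 0.06. With 1 array at day 3, the 95% intervals are wide: they ran between -0.23 and 1.02 for Slc12a2, between -0.63 and 1.62 for Scnn1a and between -1.39 and 1.52 for Slc9a3. Changes inside those intervals were not detectable here.

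After 14 days of rapamycin most members differed from untreated tumour, in both directions. Of the 9 tested genes 6 were higher and 2 lower, against 24.3% of all tested genes higher and 23.5% lower (47.7% in either direction). The median log2 difference was 1.46 for the acinar genes and 4.23 for the duct genes, against 0.02 over all genes. Cftr was at least 66.9-fold higher (7.12 ± 0.44, adjusted p = 0.000238), a bound that was not reached with the common floor (3.65) or normexp (3.16), where its rise also lay below those of Scnn1a and Scnn1b. Scnn1b rose by 4.55 ± 0.45 (adjusted p = 0.000785) and Scnn1a by 3.92 ± 0.38 (adjusted p = 0.000747), both sodium channel subunits moving up together. Slc9a3 fell by 4.50 ± 0.49 (adjusted p = 0.00106), and its second probe, not well above background at day 14, was at least 1.20-fold lower.

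Of the acinar genes at day 14, Slc12a2 rose by 2.93 ± 0.21 (adjusted p = 0.000352) and Aqp5 by 1.46 ± 0.29 (adjusted p = 0.00807) against untreated tumour. Ano1, the chloride channel of the same cells, fell by 0.83 ± 0.21 (adjusted p = 0.0208), and Kcnn4 did not pass (-0.20 ± 0.27, adjusted p = 0.576). Chrm3 counts among the 6 higher genes (2.48, adjusted p = 0.0106, limma), but its reported probe was below background limits in both groups. Its difference therefore carries no fold. The other Chrm3 probe was at least 5.99-fold higher at day 14. That probe was kept only through the day 14 arrays, where it was high, so the filter favoured this difference. The steps of acinar secretion thus did not all pass as higher: the cotransporter and the water channel did, and the potassium channel did not pass the test. The chloride channel was lower, but its call was lost with a limit of at least 2-fold and under several settings given below.

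Within slide 1, which held day 14 replicate 1 and both untreated tumours, the day 14 minus untreated differences were 7.41 for Cftr, 4.58 for Scnn1b, 4.09 for Scnn1a, -4.47 for Slc9a3, 2.76 for Slc12a2, 1.44 for Aqp5 and -0.74 for Ano1. With slide as a fixed block they were 7.08 for Cftr, 4.33 for Scnn1b, 3.74 for Scnn1a, -4.85 for Slc9a3, 2.90 for Slc12a2 and 1.30 for Aqp5, all past the threshold, and -0.69 for Ano1, which was not (adjusted p = 0.0522). The Ano1 call was also lost without any 1 of the 4 arrays compared (-0.92 to -0.74), that of Aqp5 without day 14 replicate 1 (1.48), day 14 replicate 2 (1.44) or untreated tumour replicate 2 (1.32), and that of Chrm3 without day 14 replicate 2 (2.02) or untreated tumour replicate 2 (2.30). The deposited values brought Cftr to 4.73, past the threshold, and ended the call of Ano1 (-0.82). Normexp ended the calls of Chrm3 (0.88) and Ano1 (-0.86), and quantile normalization that of Chrm3 (0.60, adjusted p = 0.327).

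**Figure D3:**
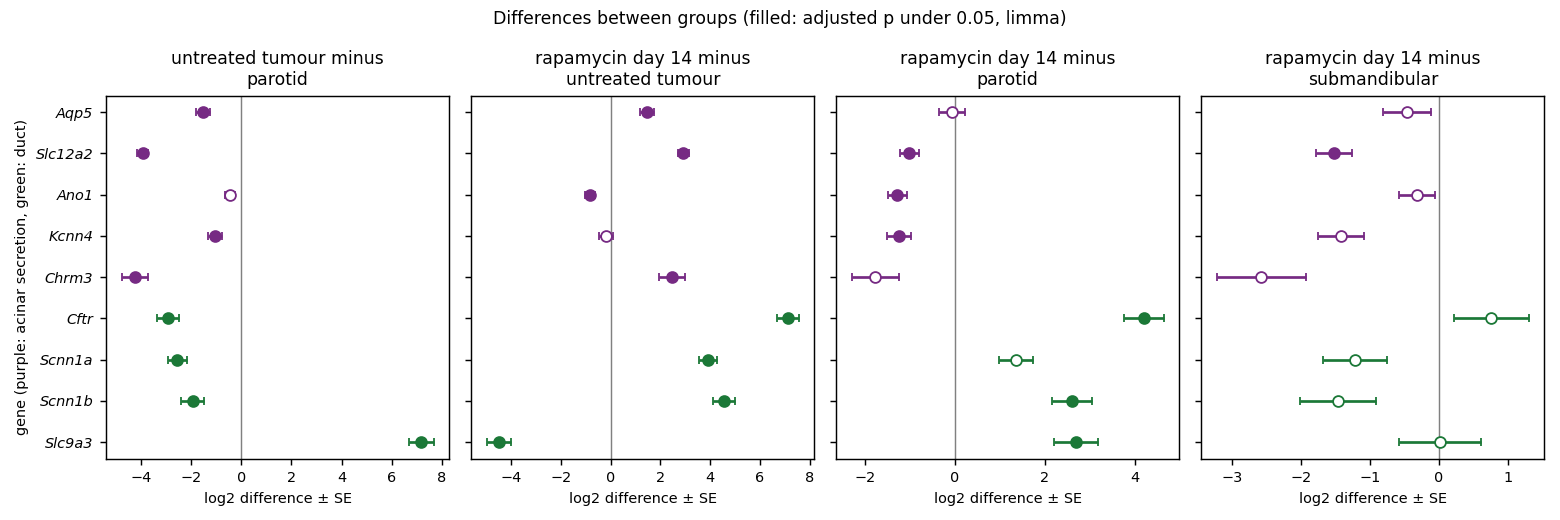
Log2 difference (horizontal axis) of each of the 9 tested genes (vertical axis) in 4 comparisons, with the standard error from limma as bars. Purple points are acinar secretion genes, green points duct genes, and filled points have an adjusted p under 0.05. Against untreated tumour, day 14 is higher for Cftr, Scnn1a, Scnn1b, Slc12a2 and Aqp5 and lower for Slc9a3 and Ano1. Chrm3 at day 14 and in untreated tumour rests on a probe below the background limit. The horizontal scale differs between panels.

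Set against day 3, the only other treated tumour, 4 of the 9 tested genes were higher and 1 lower at day 14, against 10.9% of all tested genes higher and 11.8% lower (22.8% in either direction). Cftr was at least 26.3-fold higher (adjusted p = 0.0021; 3.64 with normexp and 3.65 with the common floor on the log2 scale), Scnn1b differed by 4.47 ± 0.55 (adjusted p = 0.00427), Scnn1a by 3.42 ± 0.46 (adjusted p = 0.00564) and Slc12a2 by 2.53 ± 0.26 (adjusted p = 0.00259). Slc9a3 fell by 4.56 ± 0.60 (adjusted p = 0.00512). Aqp5 was 1.15 ± 0.35 higher without passing (adjusted p = 0.061). Within slide 2, which held both day 3 and day 14 replicate 2, the differences were 5.77 for Cftr, 4.43 for Scnn1b, 3.24 for Scnn1a, 2.71 for Slc12a2 and -4.59 for Slc9a3. Without day 14 replicate 1 the Scnn1a call was lost (3.24), and without day 14 replicate 2 that of Slc9a3 (-4.53). Aqp5 and Ano1 passed without either parotid array, at unchanged differences (1.15 and -0.61), and Aqp5 also with quantile normalization (0.83).

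The day 14 tumours were set against the glands to see how close their levels came. Against parotid gland the acinar and duct genes lay mostly on opposite sides. All 5 tested acinar genes had a negative log2 difference (median -1.24) and all 4 duct genes a positive one (median 2.65), with a median of -0.02 over all genes, but Aqp5 turned positive with quantile normalization (0.18), with the deposited values (0.06) and without parotid replicate 2 (0.23). The Chrm3 value comes from a probe not well above background at day 14, and the other Chrm3 probe went the other way, at least 1.735-fold higher at day 14 than in parotid gland (1.06 on the log2 scale). That other probe was kept only through the day 14 arrays, so the filter favoured its difference. Of the 9 genes 3 duct genes were called higher and 3 acinar genes lower, against 6.25% of all tested genes higher and 5.07% lower (11.3% in either direction). Cftr was 4.20 ± 0.44 higher (adjusted p = 0.00749), Scnn1b 2.60 ± 0.45 higher (adjusted p = 0.0229) and Slc9a3 at least 4.25-fold higher (adjusted p = 0.0257), and Scnn1a did not pass (1.36 ± 0.38, adjusted p = 0.0679). Ano1 fell by 1.28 ± 0.21 (adjusted p = 0.0214), Kcnn4 by 1.24 ± 0.27 (adjusted p = 0.0402) and Slc12a2 by 1.01 ± 0.21 (adjusted p = 0.035). Aqp5 differed by -0.07 ± 0.29 (adjusted p = 0.912), with a 95% interval between -0.76 and 0.62.

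These 6 calls against parotid gland are fragile. None was made without day 14 replicate 1 or without replicate 2, which leaves 1 array in that group. The calls of all tested genes were lost there too, so this loss is not particular to the members. The differences were then 3.91 and 4.49 for Cftr, 2.57 and 2.64 for Scnn1b and 2.66 and 2.72 for Slc9a3. They were -1.37 and -1.19 for Ano1, -1.04 and -1.44 for Kcnn4 and -0.84 and -1.18 for Slc12a2. The calls of Slc12a2, Ano1, Kcnn4 and Slc9a3 were also lost without either untreated tumour array, at unchanged differences. Those arrays enter through the shared spread, and fewer of all tested genes were called without them. Normexp ended those of Cftr (2.31), Slc9a3 (0.88) and Slc12a2 (-0.997), and the mean of both probes that of Slc9a3 (1.61). Quantile normalization and the deposited values ended those of Slc12a2 (-0.84 and -0.83) and Kcnn4 (-1.01 and -1.03). At unchanged differences, slide as a fixed block and the fit without an intensity trend ended those of Slc12a2 and Kcnn4, the common floor that of Kcnn4, and a fit of only the arrays compared those of Slc12a2, Ano1, Kcnn4 and Slc9a3. The common floor brought Slc9a3 to 1.46. Scnn1a passed with normexp (1.30), quantile normalization (1.46) and the deposited values (1.43), and Chrm3 with quantile normalization (-2.20). Within slide 1 the Aqp5 difference was 0.21 and within slide 2 it was -0.35, while the other 8 genes kept their sign in both slides, with Cftr at 4.85 and 3.55 and Scnn1a at 2.06 and 0.65. Scnn1a passed without parotid replicate 1 (0.83) or replicate 2 (1.88).

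Against the single submandibular array, 0 of the 9 genes were higher and 1 lower at day 14 with limma, against 5.65% of all tested genes higher and 3.28% lower (8.93% in either direction). An unadjusted p under 0.05 was found for 5 of the 9, against 4391 of all 16362 tested genes. Slc12a2 was the gene called and fell by 1.53 ± 0.26 (adjusted p = 0.0231), a call lost without either day 14 or either untreated tumour array (-1.70 to -1.35), with quantile normalization (-1.30), with the deposited values (-1.29) and with slide as a fixed block (-1.50). Slc9a3 differed by 0.02 ± 0.60 (adjusted p = 0.989), with a 95% interval between -1.44 and 1.47, and Cftr by 0.76 ± 0.54 (interval between -0.56 and 2.08). Kcnn4, at -1.43 ± 0.34, had an adjusted p of 0.0519, and it passed along with Scnn1a (-1.22), Scnn1b (-1.47) and Chrm3 (-2.58) without either parotid array. The Chrm3 probe was kept only through this submandibular array, so the filter favoured its difference.

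The normal glands differed in 2 duct genes. In submandibular against parotid gland 2 of the 9 tested genes were higher and 0 lower, against 1.36% of all tested genes higher and 0.984% lower (2.35% in either direction). With limma 5 of the 9 had an unadjusted p under 0.05, against 2766 of all 16362 tested genes. Scnn1b was 4.07 ± 0.55 higher (adjusted p = 0.0232) and Cftr 3.44 ± 0.54 higher (adjusted p = 0.0346), and Scnn1a did not pass (2.57 ± 0.46, adjusted p = 0.0518). The acinar genes had a median difference of 0.39, with none past the threshold and 1 at an unadjusted p under 0.05. Within slide 2 the differences were 3.60 for Scnn1b, 3.08 for Cftr and 2.04 for Scnn1a. Normexp brought Cftr to 1.70 and ended its call (adjusted p = 0.463). Slide as a fixed block ended both calls (3.41 for Cftr and 3.85 for Scnn1b), as did a fit of only the arrays compared at unchanged differences, while Scnn1a passed with normexp (2.54), quantile normalization (2.49) and the deposited values (2.52). Both calls were lost without either day 14 array and that of Cftr also without either untreated tumour array (3.44), whereas Scnn1a and Slc9a3 passed without parotid replicate 1 (2.04 and 1.94) and without replicate 2 (3.099 and 3.41), and Ano1 without replicate 2 (-1.14).

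Most sets of cell type markers were higher at day 14 than in untreated tumour. Granular duct markers of the submandibular gland (Egf, Ren1, Klk1, Klk1b4 and Klk1b1) were well above background for 5 of 5 genes on both day 14 arrays, with a summed signal of 3210 and 3094 times the 75th percentile, against 2 and 4 of 5 and sums of 0.83 and 1.01 in untreated tumour. The same sum was 1.99 at day 3, 2802 in submandibular gland and 370 and 702 in parotid gland. Acinar markers were well above background for 10 of 10 genes at day 14 (sums 6142 and 6033), against 5 and 9 of 10 in untreated tumour (sums 24.5 and 91.6), with Prol1, Smgc, Cst10, Smr3a and Pip below the limit in untreated replicate 1 and Smgc in replicate 2. In parotid gland 9 and 10 of the 10 acinar markers were above it, and in submandibular gland 7, without Dcpp1, Cst10 and Smr3a.

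Keratins of duct epithelium (Krt7, Krt8, Krt18 and Krt19) were well above background on every array, with sums of 338 and 429 at day 14, against 460 and 655 in untreated tumour. Of these 4 keratins 1 was called higher and 2 lower at day 14 than in untreated tumour (median log2 difference -0.91). Of all tested genes 24.3% were higher and 23.5% lower. Skeletal muscle markers were well above background for 6 of 6 genes at day 14 (sums 655 and 776), against 3 of 6 in each untreated tumour (sums 0.49 and 0.60, with Ckm, Myh2 and Myh4 below the limit), and they reached 71.1 in parotid replicate 2 but 0.70 in replicate 1. Fat markers summed to 225 and 196 at day 14, against 22.3 and 13.0 in untreated tumour, and were already at 66.1 at day 3. Lymphocyte and plasma cell markers summed to 77.3 and 78.4 at day 14, against 1.24 and 1.02 in untreated tumour. Basal and myoepithelial markers summed to 148 and 152 at day 14, against 31.0 and 16.7 in untreated tumour and 80.8 at day 3. Normal gland, muscle, fat and lymphoid transcripts were thus all more abundant on the day 14 arrays than in untreated tumour. The fat and basal sums were already higher on the day 3 array. The part of these cell types in the results on the 10 genes was not tested.

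**Figure D4:**
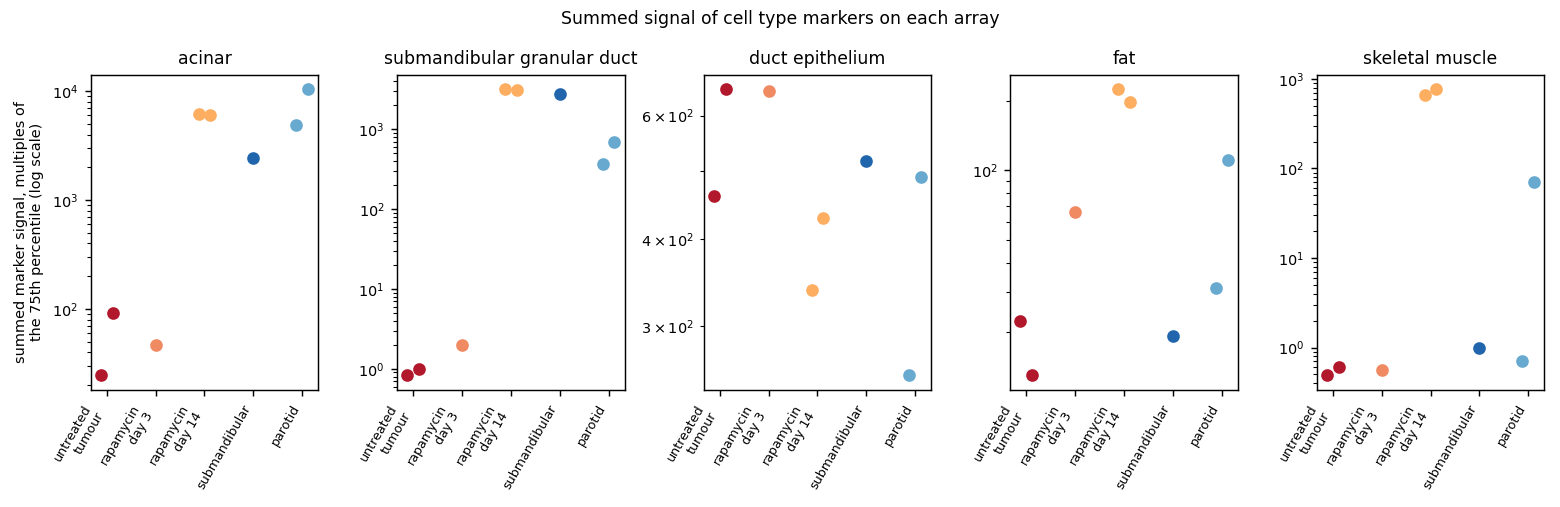
Summed signal of the markers of 5 cell types on each array, in multiples of the 75th percentile on a log scale (vertical axis), by group (horizontal axis). Points are arrays. Acinar, granular duct, fat and muscle sums at day 14 lie above those of untreated tumour. The duct keratin sums run from 255 in parotid replicate 1 to 655 in untreated tumour replicate 2.

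Genes that work beside the members were taken from lists of secretion partners (calcium release, nerve and hormone receptors, bicarbonate and sodium handling) and of duct transport partners (sodium channel regulators, bicarbonate exchangers, potassium and chloride channels). Of 29 secretion partners 25 were tested, and at day 14 against untreated tumour 11 were higher and 5 lower, with a median difference of 0.63. Of 30 duct transport partners 25 were tested, and 14 were higher and 6 lower, with a median of 1.64, against 0.02 over all genes and with 24.3% of all tested genes higher and 23.5% lower. In untreated tumour against parotid gland 2 secretion partners were higher and 7 lower, and 6 duct partners were higher and 11 lower, against 18.7% of all tested genes higher and 20.3% lower. At day 3 against untreated tumour 0 partners of either list passed with limma, against 0.00611% of all tested genes. An unadjusted p under 0.05 was found for 2 secretion and 6 duct partners, against 1436 of all 16362 tested genes.

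Scnn1g, the gamma subunit that completes the epithelial sodium channel, had a signal of 0.13 and 0.43 at day 14, against -3.84 and -2.90 in untreated tumour, and was at 2.15 in submandibular gland, against -2.11 and -1.46 in parotid gland. Across these groups Scnn1g thus had the order of Scnn1a and Scnn1b. In submandibular against parotid gland Scnn1g was 3.94 ± 0.54 higher (adjusted p = 0.0235). Fxyd2, a regulatory subunit of the sodium pump, had a signal of 3.41 and 3.61 at day 14 and was not well above background in untreated tumour, which made it at least 470-fold higher at day 14 (adjusted p = 5e-05). Fxyd2 was also at least 183-fold lower in untreated tumour than in parotid gland (adjusted p = 4.96e-05). Both bounds hold for this scaling only and were not checked under other background settings.

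Some duct partners ran with Slc9a3 instead. Pdzk1, a scaffold protein that binds apical transporters, had a signal of 1.07 and 0.24 in untreated tumour and -0.21 at day 3 and was not well above background on any day 14 or gland array. It was at least 17.4-fold lower at day 14 than in untreated tumour (adjusted p = 0.00051) and at least 18.8-fold higher in untreated tumour than in parotid gland (adjusted p = 0.000519). Pdzk1 was kept only through the tumour groups where it was high, so the filter favoured these differences. Slc4a5, a sodium bicarbonate cotransporter, was at least 2.99-fold lower at day 14 than in untreated tumour (adjusted p = 0.00386), and Fxyd4, a relative of Fxyd2, at least 26.3-fold lower at day 14 than at day 3 (adjusted p = 0.00502). Slc26a4, the anion exchanger pendrin, was at least 2.17-fold higher in untreated tumour than in parotid gland (adjusted p = 0.0064).

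Among secretion partners the beta adrenergic receptor Adrb1, which receives the sympathetic signal, moved in the direction of Slc12a2 and Aqp5. Adrb1 had a signal of 2.73 and 2.53 at day 14, against -1.29 and -1.32 in untreated tumour (3.93 ± 0.21, adjusted p = 0.000179). Against parotid gland, untreated tumour had Adrb1 lower by a log2 difference of -3.40 ± 0.21 (adjusted p = 0.000238). Car2, the cytosolic carbonic anhydrase that supplies bicarbonate and protons, went the other way, with 0.19 and 0.80 at day 14, against 3.64 and 3.73 in untreated tumour (-3.19 ± 0.36, adjusted p = 0.00123), and it was also lower at day 14 than in parotid gland (-1.93 ± 0.36, adjusted p = 0.0277). The chloride and bicarbonate exchanger Slc4a2 was 1.10 ± 0.20 higher in untreated tumour than in parotid gland (adjusted p = 0.00773), and Vipr1, a receptor for vasoactive intestinal peptide, differed by -1.72 ± 0.47 at day 14 from untreated tumour (adjusted p = 0.0247).

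Against parotid gland, 8 duct partners were higher and 0 lower at day 14, and of the secretion partners 1 was higher and 1 lower, against 6.25% of all tested genes higher and 5.07% lower. The largest duct differences were in Slc4a11, a membrane transporter of the bicarbonate family, at least 6.28-fold higher (adjusted p = 0.0364), and in Car4, a membrane-bound carbonic anhydrase, at least 2.79-fold higher (adjusted p = 0.0214). Itpr2, a calcium release channel activated by inositol trisphosphate in acinar cells, was 1.46 ± 0.23 higher (adjusted p = 0.0193). Against submandibular gland, 0 duct partners were higher and 2 lower at day 14, the potassium channel Kcnk5 (-1.78 ± 0.39, adjusted p = 0.0434) and the carbonic anhydrase Car12 (-1.77 ± 0.37, adjusted p = 0.0378), and the only secretion partner called was Atp1b1, the beta subunit of the sodium pump (-1.09 ± 0.24, adjusted p = 0.0454), against 5.65% of all tested genes higher and 3.28% lower. In submandibular against parotid gland, 6 duct partners were higher and 0 lower, against 1.36% of all tested genes higher and 0.984% lower, and Kcnk5 differed most (4.03 ± 0.39, adjusted p = 0.0105).

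**Figure D5:**
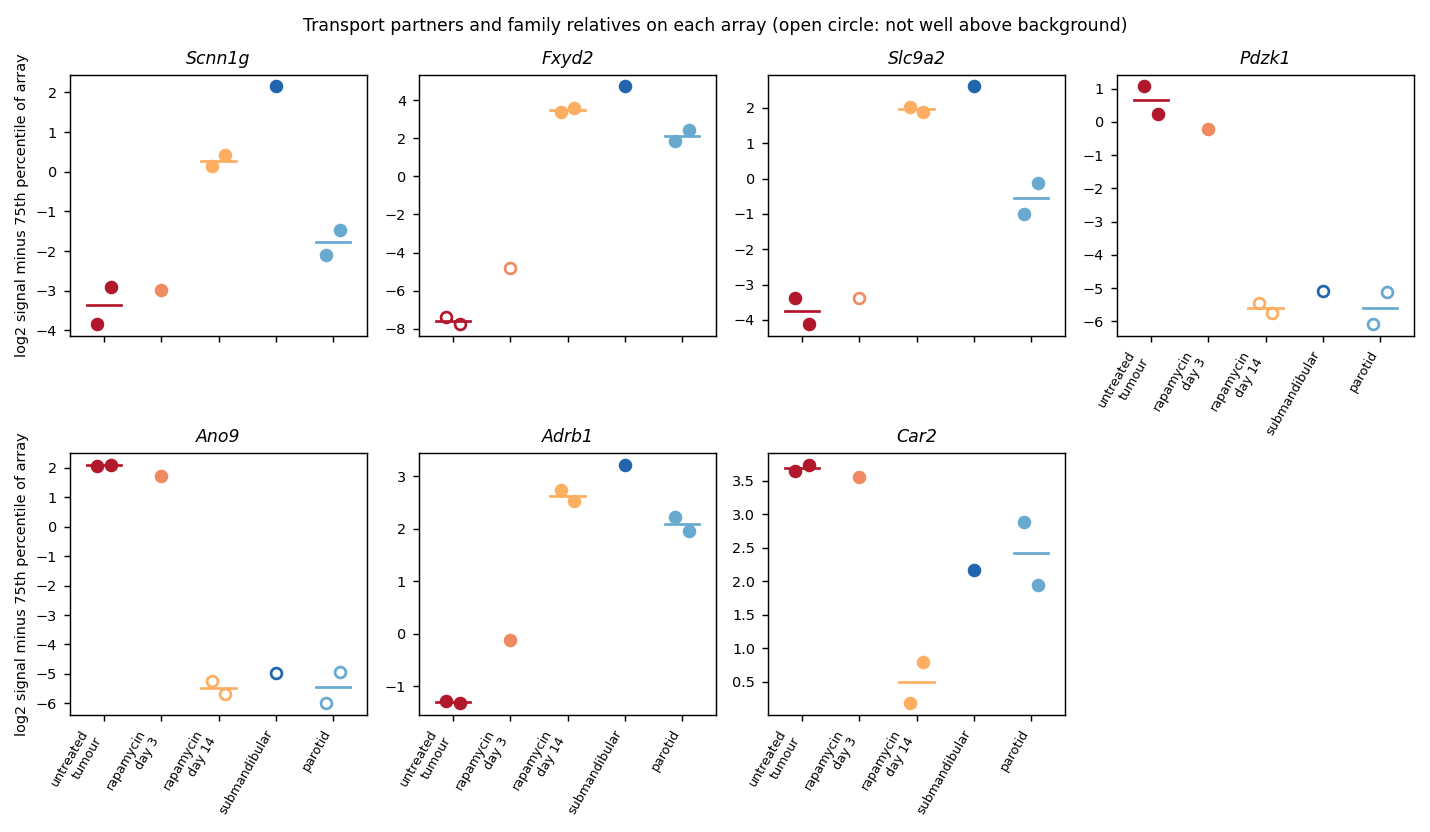
Log2 signal relative to the 75th percentile (vertical axis) of 7 transport partners and family relatives on each array, by group (horizontal axis). Points are arrays, lines group means, and open circles are not well above background. Scnn1g, Fxyd2, Slc9a2 and Adrb1 are higher at day 14 than in untreated tumour, and Pdzk1, Ano9 and Car2 are lower. The vertical scale differs between panels.

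Relatives of the members were read for the same families. Of 34 relatives 32 were on the array and 19 were tested, and at day 14 against untreated tumour 7 were higher and 4 lower, against 24.3% of all tested genes higher and 23.5% lower. Slc9a2, which encodes the sodium and proton exchanger NHE2, ran opposite to Slc9a3 between untreated tumour and day 14. Its signal was 2.04 and 1.90 at day 14, against -3.38 and -4.12 in untreated tumour (5.72 ± 0.41, adjusted p = 0.000352). Slc9a2 was also 2.53 ± 0.41 higher at day 14 than in parotid gland (adjusted p = 0.0203) and 3.17 ± 0.51 higher in submandibular than in parotid gland (adjusted p = 0.0355). Of the intracellular exchangers, Slc9a7 rose by 2.95 ± 0.27 at day 14 (adjusted p = 0.000618) and Slc9a9 was at least 4.57-fold lower (adjusted p = 0.00549). The exchanger family therefore held members of both directions.

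Ano9, a relative of the Ano1 chloride channel, had a signal of 2.08 and 2.10 in untreated tumour and 1.73 at day 3 and was not well above background on the other arrays. Ano9 was at least 47.0-fold lower at day 14 than in untreated tumour (adjusted p = 0.000238) and at least 50.8-fold higher in untreated tumour than in parotid gland (adjusted p = 0.000233). As with Pdzk1, only the tumour groups where it was high let Ano9 through the filter, which favoured these differences. Among aquaporins, Aqp11 was at least 11.2-fold higher in untreated tumour than in parotid gland (adjusted p = 0.000623). Aqp8 was not well above background in untreated tumour and passed as lower than in parotid gland (adjusted p = 0.0436), but its parotid signal was -2.22 in replicate 1 and 6.35 in replicate 2, so no fold is given. Aqp1, the water channel of blood vessels, was 2.41 ± 0.37 higher at day 14 than in submandibular gland (adjusted p = 0.019). Chrm4, a muscarinic receptor, was at least 10.4-fold lower in untreated tumour than in parotid gland (adjusted p = 0.00203).

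By Pearson's r over the 8 arrays, which fall into 5 groups and are therefore not 8 independent points, the genes most like each member were named as a description. For Scnn1b they were Gabarapl1 and Nos1 (both 0.994) and Scnn1g (0.992), the other subunit of its channel. For Aqp5 the nearest was Cxxc5 (0.995), for Slc12a2 Mcts1 (0.996), for Kcnn4 Rab3gap1 (0.982), for Cftr Ppp1r12b (0.996), for Scnn1a Pde6h (0.997) and for Slc9a3 Ift43 (0.999).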

How the data were processed

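Total RNA (300 ng per sample, per the labels) from 8 mouse samples was measured on Agilent 1-colour arrays of the mouse genome. Per the file headers, the scanner software Feature Extraction 10.7.3.1 gave each spot a background-subtracted, spatially detrended intensity that was not scaled between arrays, and probe positions are on mm8. The authors' deposited table is on a log2 scale, its columns have medians between 5.52 and 5.57 and the same highest value, 18.97, and its normalization is not given in the sources used here; the columns followed their own arrays with r of 0.971 to 0.980, and the table served as an alternative only.

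Flagged spots (non-uniform or outlier) were dropped. A probe was kept if all arrays of some group showed it well above background, which left 24279 of 41174 probes. The brightest probe stood for a gene, giving 16362 genes, and 11 of the 15 member probes were kept. No spot was saturated. Log2 intensity minus the 75th percentile of the array entered limma 3.58.1 (R 4.3.3) as 5 group means from all 8 arrays together, with an intensity trend, 3 residual and 3.28 prior degrees of freedom. P-values are two-sided and Benjamini-Hochberg adjusted over the 16362 genes, and 0.05 was the threshold. The 8 comparisons share this spread. The number of arrays limits the precision.

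The members, partner lists and markers were chosen with earlier results of these data known. All members are named in every comparison. From each list the named genes are up to 2 rises and 2 falls, the largest past the threshold in a comparison, and the 3 genes of highest Pearson r are the most like a member, clone-type names passed over. Scnn1g at day 14 and the per-array values of 7 partners were given after their values were seen. Alternatives were normexp background correction (offset 50), quantile normalization, the deposited values, no filter, requiring signal well above background on all 8 arrays, averaging a gene's probes, no trend, slide as a block (fixed or random), slide 1 by itself, the replicate number as a block, only the arrays compared, at least 2-fold, and each array left out. A common floor, with signals below -2.95 (the highest limit of the arrays) set to it, was chosen after seeing the data. The fit was tested on simulated data. A few partner and like genes and 1 granular duct marker are not reported here, and the marker sums leave that marker out.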

Additional observations from a re-analysis of the deposited data

Results flagged for a closer look

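The rapamycin effect differed between its 2 time points for 5 of the 9 tested genes, by limma's test of day 14 minus day 3, against 22.8% of all tested genes. The difference was 6.05 for Cftr (adjusted p = 0.0021), 4.47 for Scnn1b (adjusted p = 0.00427), 3.42 for Scnn1a (adjusted p = 0.00564) and 2.53 for Slc12a2 (adjusted p = 0.00259), all on the log2 scale and higher at day 14 on both arrays. It was -4.56 for Slc9a3 (adjusted p = 0.00512), lower at day 14 on both arrays. The Scnn1a call was lost without day 14 replicate 1 (3.24, adjusted p = 0.0541) and the Slc9a3 call without day 14 replicate 2 (-4.53, adjusted p = 0.0508). Day 3 was a single array on slide 2, and the day 14 arrays also differed from it in the markers of gland, muscle and lymphoid cells, whose part was not tested.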

How the results depend on the processing

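Of 9 tested members, the number called moved by over 1.5 times in these cases. The share of all tested genes called moved under many of these settings too, also when an array was left out. A moved count is therefore not by itself a result about the members. In untreated tumour against parotid gland 8 members were called, and 5 with normexp, with the filter on all 8 arrays or with the common floor. Of all tested genes 25.5%, 39.1% and 28.7% were called there, against 39.0% otherwise. The filter on all 8 arrays, which leaves 6 members, gave 5 in untreated tumour against submandibular gland (8 otherwise), 5 in day 14 against untreated tumour (8) and 3 in day 14 against day 3 (5). Day 14 against parotid gland gave 2 with only the arrays compared (6 otherwise), with 4.22% of all tested genes called (11.3% otherwise). Day 14 against submandibular gland (1) gave 0 with the deposited values or with slide as a fixed block (5 and 3 genes at an unadjusted p under 0.05), 2 with the mean of probes, without the trend or with the common floor, and 6 with only the arrays compared. Of all tested genes 8.95% were called with the deposited values, 3.36% with the fixed slide block and 40.1% with only the arrays compared, against 8.93% otherwise. Submandibular against parotid gland (2) gave 4 with the deposited values and 0 with slide as a fixed block or only the arrays compared (5 and 4 at an unadjusted p under 0.05). Of all tested genes 2.54%, 0.721% and 0.495% were called there, against 2.35% otherwise. Leaving out 1 array gave 6 to 9 in untreated tumour against parotid, 6 to 8 against submandibular gland, 0 in day 3 against untreated tumour, 5 to 8 in day 14 against untreated tumour, 4 to 7 against day 3, 0 to 7 against parotid, 0 to 5 against submandibular gland, and 0 to 5 in submandibular against parotid gland. No call changed sign under these alternatives, whereas 27 values of members past the threshold under neither setting did, 15 of them in day 3 against untreated tumour. Of the single members' values 1167 kept their side of the threshold, 108 lost it and 46 gained it.

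Same-numbered replicates did not deviate together (r = 0.138 for day 14 with untreated tumour, -0.075 for day 14 with parotid and 0.013 for untreated tumour with parotid). For day 14 and parotid gland the replicate number is also the slide number, whereas both untreated tumours lay on slide 1. With the replicate number as a block, 3 members were called in day 14 against parotid gland, with 6.83% of all tested genes called (11.3% otherwise). The counts of untreated tumour against parotid and of day 14 against untreated tumour stayed within 1.5 times.

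The median of all genes moved by over 0.1 with scaling: with normexp to -0.12 in untreated tumour against parotid, -0.09 in day 3 and 0.16 in day 14 against untreated tumour, 0.20 in day 14 against day 3 and 0.04 in day 14 against submandibular gland; with quantile normalization to 0.12 in untreated tumour against parotid, 0.16 against submandibular gland and -0.08 in day 14 against untreated tumour; and with the deposited values to 0.12 in untreated tumour against parotid and -0.12 in day 14 against untreated tumour. With no filter on dim probes it ran between -1.02 (untreated tumour against submandibular gland) and 1.09 (day 14 against untreated tumour), and it was -0.97 in untreated tumour against parotid, close to the Kcnn4 difference there (-1.04). Signals of Cftr, Chrm3 and Slc9a3 below background limit their folds to bounds, and at the common floor Cftr in untreated tumour against parotid gave no value.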
